A study of Mus musculus with 17 samples.

Results

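The genes described here are the 174 protein-coding genes of mouse chromosomes 7, 13 and 17 whose symbols are Zfp followed by a number, among 21938 protein-coding genes of the assembled chromosomes (GENCODE vM21, mm10). They were chosen by symbol and chromosome alone, with no measured value, and 13 of them carry letters after the digits. Chromosome 7 held 92 of them, chromosome 13 held 36 and chromosome 17 held 46. The measurement was chromatin immunoprecipitation and sequencing (ChIP-seq) of histone H3.3 in newborn CD1 mouse lenses dissected into the epithelium and the fibers, with 2 libraries per compartment. CD1 is an outbred mouse stock, no animal carried an engineered allele or received a treatment, and each library pooled 150 lenses by the sample labels, a number on which the study's methods differ. The sample titles put the lenses at P1 and the dissection protocol at P0.5. For each library the deposited table lists islands, which are stretches of enriched 200-bp windows joined over gaps of up to 600 bp, with the number of reads in each. The main values are set beside the same values over all protein-coding genes.

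Most Zfp-number genes encode proteins with tandem C2H2 zinc fingers, small folds in which a zinc ion is held by cysteines and histidines and which together read a run of DNA bases. Many also carry a Krüppel-associated box (KRAB), which recruits TRIM28 and with it H3K9 methylation to the bound site, often a transposable element, and these genes lie in tandem clusters grown by duplication. H3.3 is the histone H3 variant placed outside DNA replication, by HIRA at active genes and by ATRX and DAXX at heterochromatin, and in several cell types ATRX and H3K9me3 lie over the large terminal exons that encode the finger arrays. A lens epithelial cell divides and can become a fiber cell, which elongates, fills with crystallins and loses its nucleus.

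The coding sequences held the features expected of the family name. A finger pattern (C, 2 residues, C, 12 residues, H, 3 to 5 residues, H) occurred a median of 11 times per gene. Of 2056 fingers, 2015 (98.0%) lay in the largest coding exon, whose midpoint sat at a median of 82.7% of the gene length from the start and beyond the middle of the gene in 160 of 174 genes. The KRAB A-box pattern LYxxVMxE was found in 106 genes and not in 68, and a protein without these exact letters may still hold a KRAB domain. The finger array of Zfp146, a protein made almost only of fingers, shows the tandem repeat inside that exon. It held 10 fingers, and all 9 steps from a finger to the next were 28 residues or 84 bases. The first finger with its linker (minus strand, chr7:30162481-30162564, mm10) is given with the 2 cysteine and 2 histidine codons in capitals, and the 8 other 84-base units were 50% to 72.6% identical to it.
Zfp146 finger: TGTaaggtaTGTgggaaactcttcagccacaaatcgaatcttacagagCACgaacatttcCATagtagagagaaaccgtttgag

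The bases ahead of 4 RefSeq gene starts are printed because these genes stand for the patterns described below. Zfp143 had its start in an island in all 4 libraries, Zfp598 and Zfp146 in both fiber libraries and in neither epithelium library, and Zfp57 in none. Each run is the 250 bases before the RefSeq start (GRCm38.p6), 5′ to 3′ on the strand of the gene, with each CG in capitals. They lie at chr7:110061452-110061701 (plus strand) for Zfp143, chr17:24669437-24669686 (plus) for Zfp598, chr7:30169742-30169991 (minus) for Zfp146 and chr17:37000913-37001162 (plus) for Zfp57. CG occurred 14 times in the Zfp143 run, 20 times for Zfp598, 9 times for Zfp146 and 6 times for Zfp57. The RefSeq start of Zfp143 lies 485 bp downstream of its GENCODE start, the start scored in the islands. Its printed run therefore lies inside the GENCODE gene body.
Zfp143: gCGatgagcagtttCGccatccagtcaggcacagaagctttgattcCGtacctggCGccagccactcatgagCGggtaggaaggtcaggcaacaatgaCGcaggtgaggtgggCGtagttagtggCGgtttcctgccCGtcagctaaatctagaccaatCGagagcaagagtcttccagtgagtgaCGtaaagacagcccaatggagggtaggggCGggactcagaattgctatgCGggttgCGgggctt
Zfp598: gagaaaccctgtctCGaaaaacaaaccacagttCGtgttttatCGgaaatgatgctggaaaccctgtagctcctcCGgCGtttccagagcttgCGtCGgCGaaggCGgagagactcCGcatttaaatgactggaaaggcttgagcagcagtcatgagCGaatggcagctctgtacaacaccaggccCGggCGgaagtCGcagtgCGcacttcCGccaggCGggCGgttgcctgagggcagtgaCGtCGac
Zfp146: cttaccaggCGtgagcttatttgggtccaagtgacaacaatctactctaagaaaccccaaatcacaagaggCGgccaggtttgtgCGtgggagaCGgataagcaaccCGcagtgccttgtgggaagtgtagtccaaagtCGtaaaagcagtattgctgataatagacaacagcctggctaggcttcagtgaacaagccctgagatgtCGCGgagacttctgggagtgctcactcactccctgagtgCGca
Zfp57: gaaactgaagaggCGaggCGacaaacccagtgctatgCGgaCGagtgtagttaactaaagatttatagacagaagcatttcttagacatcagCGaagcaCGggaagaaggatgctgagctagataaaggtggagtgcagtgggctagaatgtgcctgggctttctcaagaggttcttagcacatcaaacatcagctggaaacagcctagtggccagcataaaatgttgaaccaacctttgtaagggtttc

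The 4 libraries differed in how much was called. The epithelium libraries held 10389 and 14434 islands over 45.4 and 48.9 Mb, and the fiber libraries held 27059 and 35940 islands over 178 and 188 Mb. Reads in islands numbered 1331369 and 1430373 in the epithelium and 5041885 and 5359085 in the fibers; the sequencing depth itself is unknown. The fiber genes Bfsp1 and Lim2, which encode a beaded filament protein and a fiber membrane protein, had 0% of the gene body in islands in both epithelium libraries and 100% in both fiber libraries. Of 7 fiber genes, 5 were covered more in both fiber libraries than in either epithelium library, and Cryaa was at 100% in all 4. Of 4 genes of the epithelium, Cdh1 (17.0% and 26.9% against 41.6% and 48.6%) and Pax6 (76.9% and 81.7% against 94.4% and 85.2%) were also covered more in both fiber libraries and none in both epithelium libraries, so the islands gave no check of the epithelial label. In these pooled tissues a smaller share of cells with H3.3 and less H3.3 per cell cannot be told apart.

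More Zfp genes overlapped a called H3.3 island in the fiber libraries than in the epithelium libraries, which held fewer islands. A gene without an island is one where enrichment was not called, at an unknown depth. An island overlapped 19 of the 174 genes (10.9%) in epithelium replicate 1, 30 (17.2%) in epithelium replicate 2, 81 (46.6%) in fiber replicate 1 and 109 (62.6%) in fiber replicate 2. Over all protein-coding genes the shares were 25.8%, 30.3%, 50.8% and 56.7%. The Zfp genes thus lay below the background in both epithelium libraries, and in the fibers they were below it in replicate 1 and above it in replicate 2. The mean was 14.1% ± 4.47 (SD, n = 2) in the epithelium and 54.6% ± 11.4 (n = 2) in the fibers, a difference of 40.5 points (exact permutation test, two-sided, p = 0.333). With 2 libraries against 2, 0.333 is the smallest p this test can give. It is reached whenever the compartments do not overlap, whatever the spread between the libraries.

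The length of gene in islands followed the same order with less spread. On average 5.21% and 5.39% of the gene body lay in islands in the epithelium and 18.6% and 19.7% in the fibers, with genes without an island at 0. All protein-coding genes stood at 8.18% and 8.59% in the epithelium and 22.1% and 22.0% in the fibers. The difference was 13.9 points for the Zfp genes (5.30% ± 0.124 against 19.2% ± 0.777, SD, n = 2; exact permutation p = 0.333) and 13.7 points for all genes. The Zfp genes of other chromosomes (n = 220) were close to these values, at 5.58%, 5.24%, 20.2% and 20.8%.

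**Figure D1:**
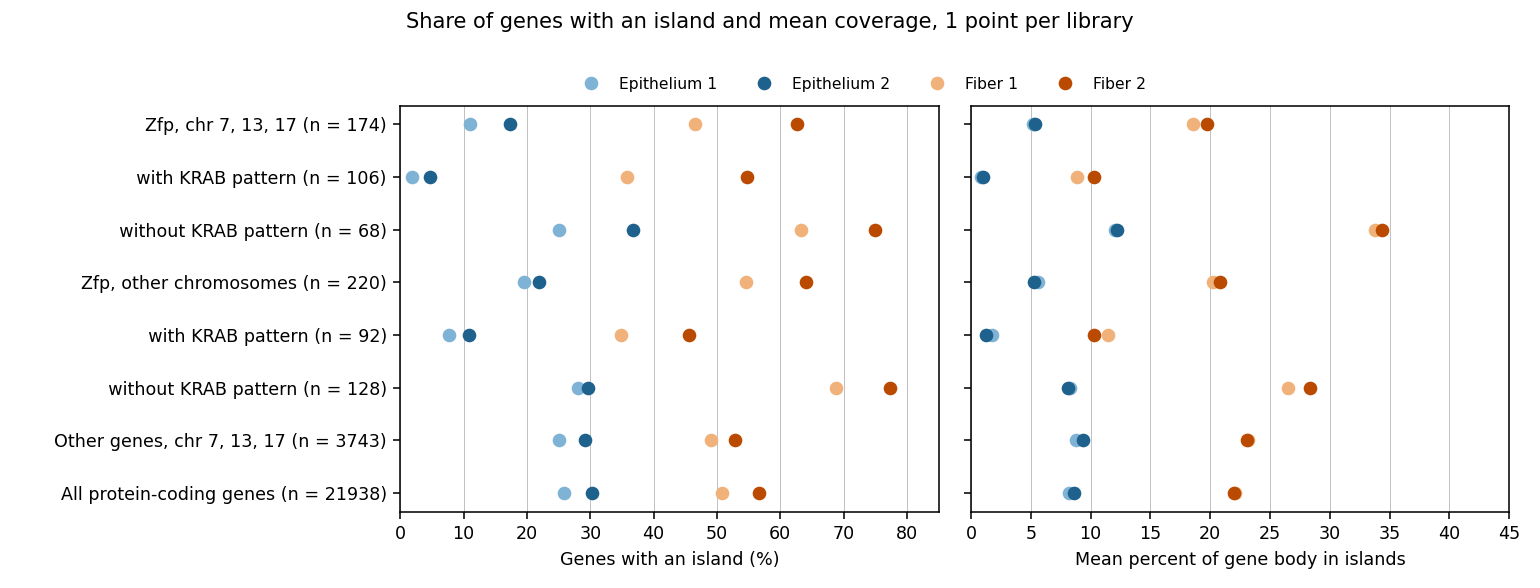
Share of genes with an island (left) and mean percent of the gene body in islands (right), 1 point per library, for gene lists on separate rows. In every list the fiber points lie to the right of the epithelium points, and the genes with the KRAB pattern lie nearest 0 in the epithelium (1.89% and 4.72% with an island).

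The number of islands per library moved with these differences. When the same number of islands, 10389, was taken from each library by reads per kb, 10.9%, 13.2%, 23.6% and 25.3% of the Zfp genes had an island, beside 25.8%, 24.9%, 31.3% and 30.4% of all genes. When the islands with the most reads were taken, the Zfp shares were 10.9%, 12.1%, 19.0% and 22.4%, beside 25.8%, 25%, 31.4% and 30.4% of all genes. The fiber values stayed above the epithelium values on both scales, at a mean difference of 12.4 and 9.20 points in place of 40.5. Each library gave the same number of islands in these settings, and the source of the remaining difference was not tested.

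Inside the called islands the raw density of reads differed little. These densities are not scaled to depth and come only from stretches that passed the enrichment call. Over all islands the library medians were 28.3 and 28.1 reads per kb in the epithelium and 27.4 and 27.5 in the fibers. The values therefore do not compare the level of H3.3 between the compartments. For each gene with an island, the reads of its islands were divided by their summed length. The median over such Zfp genes was 29.8 and 29.9 reads per kb in the epithelium and 28.1 in each fiber library. The fiber median was lower by 1.77 reads per kb (exact permutation p = 0.333). All genes gave 28.5 and 28.2 in the epithelium and 27.9 and 28.2 in the fibers. The sign of the Zfp difference depended on which islands entered: it was 2.41 reads per kb, higher in the fibers, when each library gave its 10389 densest islands.

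Per gene, 58 Zfp genes (33.3%) had an island in no library, beside 39.0% of all genes. An island in all 4 libraries was found for 15 (8.62%), beside 19.0%, and an island in both fiber libraries and neither epithelium library for 46 (26.4%), beside 15.9%. Fiber replicate 2 alone had an island in 30 genes and fiber replicate 1 alone in 6. Coverage in both fiber libraries exceeded coverage in both epithelium libraries in 67 genes (38.5%), beside 38.4% of all genes, which is the background share. The reverse held for 1 gene, Zfp629 (0.575%, beside 0.775%), and Zfp974 was the 1 gene with an island in an epithelium library (9.33% in replicate 2) and in no fiber library. With 10389 islands from each library, the count of genes higher in both fiber libraries was 21 by density (12.1%, beside 13.2% of all genes) and 20 by reads (11.5%, beside 17.9%). With all islands and without fiber replicate 1, 103 genes (59.2%, beside 48.2%) were higher in fiber replicate 2 than in both epithelium libraries.

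**Figure D2:**
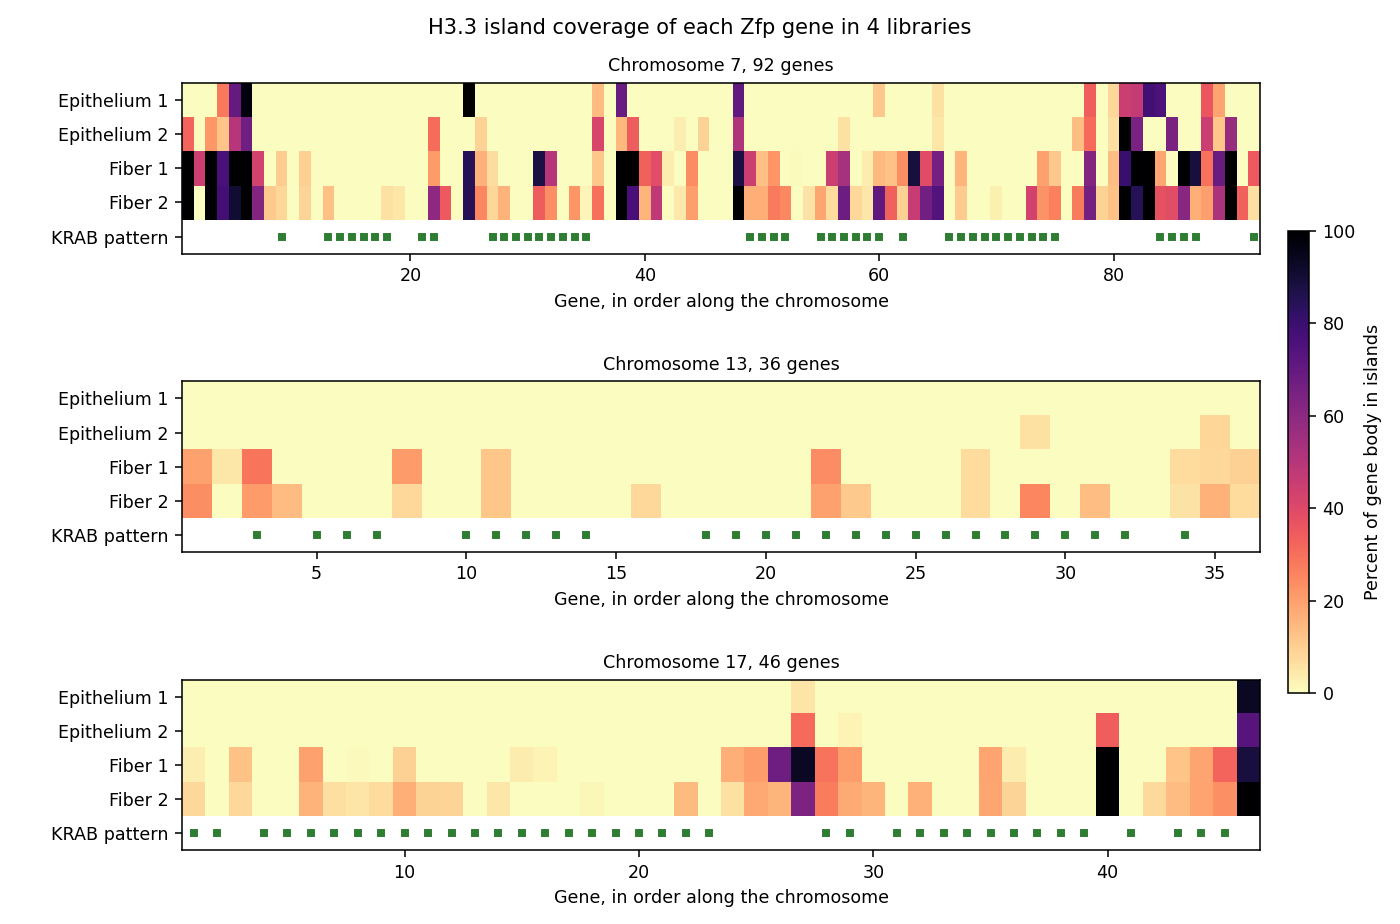
Percent of the gene body in islands for each of the 174 genes, as colour, in order along chromosomes 7, 13 and 17, with 1 row per library. Squares below the rows mark genes with the KRAB pattern. Fiber coverage above 0 occurs on all 3 chromosomes, whereas on chromosome 13 no gene had an island in epithelium replicate 1.

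The KRAB pattern divided the genes. Among the 106 genes with it, 1.89% and 4.72% had an island in the epithelium libraries and 35.8% and 54.7% in the fiber libraries. Among the 68 without it, 25% and 36.8% had one in the epithelium and 63.2% and 75% in the fibers. The share was lower with the pattern in each of the 4 libraries. The size of the fiber gap varied with gene length. Between 10 and 30 kb the fiber shares were 37.8% and 58.1% in 74 genes with the pattern. They were 52.5% and 62.5% in 40 without it. Under 10 kb they were 38.9% and 61.1% of 18 against 84.2% and 94.7% of 19. Over 30 kb they were 21.4% and 28.6% of 14 against 66.7% and 88.9% of 9. The part of gene length was not tested. Mean coverage was 0.821%, 1.03%, 8.86% and 10.3% with the pattern and 12.1%, 12.2%, 33.8% and 34.4% without it. With the 10389 islands of most reads from each library, the shares of the KRAB genes were 1.89%, 3.77%, 5.66% and 9.43%, and with the densest they were 1.89%, 2.83%, 17.9% and 21.7%. All 15 genes with islands in all 4 libraries lacked the pattern. Zfp genes of other chromosomes divided the same way, with islands in 7.61%, 10.9%, 34.8% and 45.7% of 92 genes with the pattern and in 28.1%, 29.7%, 68.8% and 77.3% of 128 without it. These shares are a description with no test, since genes of a cluster are not independent of each other.

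The KRAB genes also held more repeated sequence. The median share of 75-nt stretches that occur elsewhere in the genome was 3.63% in genes with the pattern, 1.17% in genes without it and 1.19% in all genes, and single-end reads of 75 nt from such stretches have no unique position. Among the 73 KRAB genes with under 10% repeated, 1.37%, 4.11%, 39.7% and 63.0% had an island. Among the 26 with 10 to 30% repeated the shares were 3.85%, 7.69%, 23.1% and 34.6%. In the 7 with 30% or more repeated they were 0%, 0%, 42.9% and 42.9%, so the fiber shares had no single order over these bins. The 58 genes without any island had a median of 5.76% repeated and the 75 with one in both fiber libraries 1.24%. The part of repeats in these differences was not tested.

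Within the gene, fiber islands lay toward the start. Each gene was divided at its middle, and the percent covered on the end side was subtracted from that on the start side. The mean difference was 0.201 and 1.0 points in the epithelium and 6.70 and 13.5 points in the fibers (0.601 ± 0.566 against 10.1 ± 4.81, SD, n = 2; exact permutation p = 0.333). All genes averaged 0.714 in the epithelium and 3.07 in the fibers. Of the Zfp genes with an island, the start side was covered more in 52 of 81 in fiber replicate 1 and in 86 of 109 in fiber replicate 2, and in 9 of 19 and 16 of 30 in the epithelium. As shares these were 64.2% and 78.9% in the fibers, beside 51.2% and 55.8% of all genes with an island and 63.3% and 68.1% of such Zfp genes of other chromosomes. Among KRAB genes it was 30 of 38 and 53 of 58 in the fibers. With equal numbers of islands the fiber mean was 3.53 points by density and 2.76 by reads. In the KRAB genes alone it was 3.85 and 1.40, and by reads the difference from the epithelium was 0.46 points (exact permutation p = 1).

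Along the gene in steps of 10% of its length, the KRAB genes stood at 26.7% and 42.0% covered in the first step of the fiber libraries. In the last step they stood at 3.96% and 5.07%. Genes without the pattern went from 50% and 63.1% to 28.5% and 28.6%, and all genes from 30.5% and 33.1% to 23.1% and 22.6%. The drop from start to end was thus present in all 3 lists and, as a share of the first step, greatest in the KRAB genes.

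**Figure D3:**
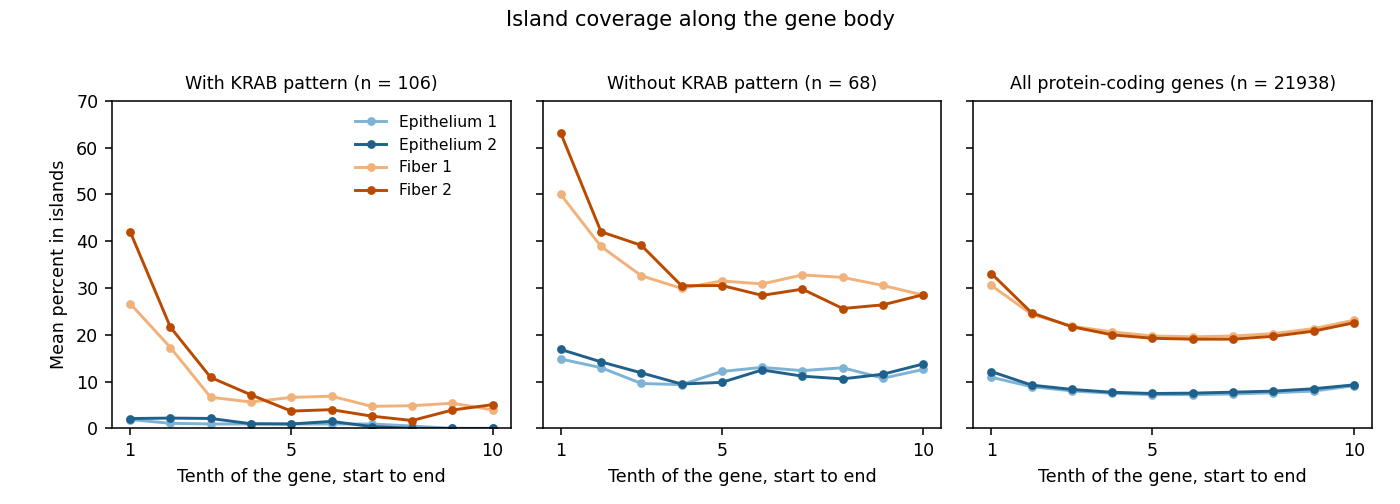
Mean percent of each step of 10% of the gene in islands, from the start (step 1) to the end (step 10), 1 line per library, in panels for the KRAB genes, the genes without the pattern and all genes. In the fibers the KRAB genes fall from 26.7% and 42.0% to 3.96% and 5.07%, and the epithelium lines of these genes stay near 0.

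The gene start and the finger exon gave the same picture at single bases. The start base lay in an island in 7.47% and 9.20% of Zfp genes in the epithelium and in 39.1% and 55.7% in the fibers. The midpoint of the largest coding exon did so in 6.32% and 6.90% in the epithelium and in 17.2% and 13.8% in the fibers. The start exceeded the exon by 1.15 and 2.30 points in the epithelium and by 21.8 and 42.0 points in the fibers, a difference of 30.2 points between the compartment means (exact permutation p = 0.333). For all genes that difference was 10.7 points. In the Zfp genes of other chromosomes the start exceeded the exon by -0.455 and 1.82 points in the epithelium and by 15.9 and 32.3 in the fibers. Between 10 and 30 kb, the start exceeded the exon in the fibers by 26.3 and 50.9 points in the 114 Zfp genes. In all genes of that length it did so by 14.6 and 20.6 points. With equal numbers of islands the fiber mean of start over exon was 14.7 points by density and 5.75 by reads, in place of 31.9.

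Counted per gene, the start was in an island in both fiber libraries in 62 genes (35.6%), beside 31.4% of all genes, and in both epithelium libraries in 5 (2.87%), beside 6.83%. The exon midpoint was in an island in both fiber libraries in 22 genes (12.6%), beside 18.9%. The start was inside and the exon outside in both fiber libraries in 36 genes (20.7%), beside 11.6%. The opposite, an exon inside and a start outside, occurred in 1 gene, Zfp296. In the 106 KRAB genes the exon midpoint was in an island in 0.943% in each epithelium library and in 5.66% and 1.89% in the fibers, while the start was in one in 32.1% and 48.1% in the fibers. With 10389 islands from each library, their starts were in an island in 17.0% and 18.9% in the fibers by density and in 3.77% and 5.66% by reads, and by reads the difference between compartments in start over exon was 1.89 points (exact permutation p = 0.667). The finger exons of KRAB genes were therefore rarely inside called H3.3 islands in either compartment, at the depth of these libraries.

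**Figure D4:**
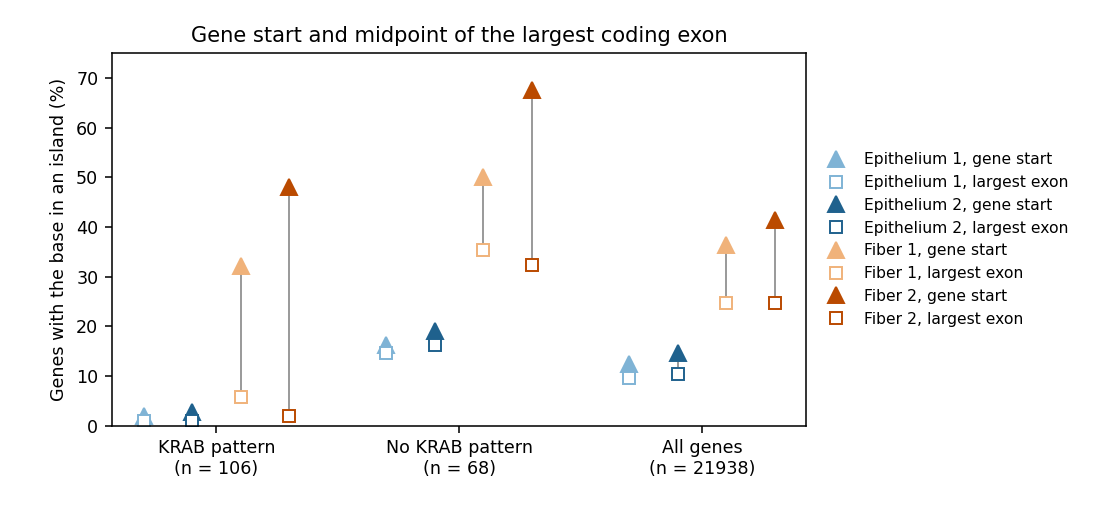
Percent of genes with the start base or the midpoint of the largest coding exon in an island, for the Zfp genes with and without the KRAB pattern and for all genes, 1 point per library. In the KRAB genes the fiber values are 32.1% and 48.1% at the start and 5.66% and 1.89% at the exon.

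Islands at the starts of KRAB genes were short. In the fiber libraries their median length was 3800 and 3200 bp, against 8800 and 5700 bp at the starts of genes without the pattern, while the read density was similar (28.9 and 29.0 against 29.3 and 29.7 reads per kb). The start of another gene lay in the same island for 15 of 68 genes in fiber replicate 1 and 15 of 97 in replicate 2, and at those genes the island cannot be assigned to the Zfp start alone. RefSeq promoters (250 bases before to 50 after the start, GRCm38.p6) were matched by symbol for 155 of the 174 genes. The start scored in islands is the GENCODE start, and the RefSeq start can lie elsewhere. The starts are 91699 bp apart at Zfp935 and 63361 bp apart at Zfp936. At such genes the 300 bases are not at the scored start. Genes with a start in both fiber islands had a median of 15 CG in the 300 bases, genes without any island 9, and all genes 14. Genes with the KRAB pattern had 10 and those without it 18. The GC-box letters GGGCGG, searched on both strands, were in 38.1% of the matched Zfp promoters and in 48.2% of all promoters. CCAAT was in 47.1% and 38.8%, and TATAAA in 5.81% and 12.9%.

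The chromosomes differed in share. Islands overlapped 18.5%, 26.1%, 55.4% and 72.8% of the chromosome 7 genes in the 4 libraries. On chromosome 13 the shares were 0%, 5.56%, 27.8% and 38.9%, and on chromosome 17 they were 4.35%, 8.70%, 43.5% and 60.9%. The KRAB pattern was present in 44 of the 92 genes of chromosome 7, in 25 of 36 on chromosome 13 and in 37 of 46 on chromosome 17. Among the KRAB genes alone, the fiber shares were 45.5% and 70.5% on chromosome 7 and 20% and 32% on chromosome 13. On chromosome 17 they were 35.1% and 51.4%, so the chromosomes kept that order within this type. In these KRAB genes the median share of repeated stretches was 1.66% on chromosome 7, 11.7% on chromosome 13 and 3.83% on chromosome 17. The part of repeats in the order of the chromosomes was not tested.

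Most of the genes were neighbours. Joining genes less than 250 kb apart gave 15 clusters of 3 or more with 135 genes, and 39 genes lay outside them. The Zfp84 to Zfp146 cluster of chromosome 7 (15 genes over 401 kb, 11 with the KRAB pattern) had an island in 1 gene in each epithelium library and in 11 and 14 genes in the fibers. Its whole span held 1 island in each epithelium library (2.00 and 2.60 kb) and 20 and 21 islands in the fibers (89.8 and 105 kb). The Zfp677 to Zfp946 cluster of chromosome 17, with 18 genes that all carry the pattern, had 0, 0, 5 and 9 genes with an island. In the largest cluster, Zfp712 to Zfp273 on chromosome 13 with 23 genes, 0, 1, 3 and 7 genes had one. The 3 genes from Zfp808 to Zfp934 on chromosome 13 had none in any library, and a median of 35.6% of their 75-nt stretches occurs elsewhere in the genome. At the other end stood the Zfp628 to Zfp580 cluster of chromosome 7, with no KRAB pattern in its 6 genes, at 3, 5, 6 and 5 genes with an island, and the Zfp553 to Zfp646 cluster, at 6, 6, 9 and 10 of 10.

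**Figure D5:**
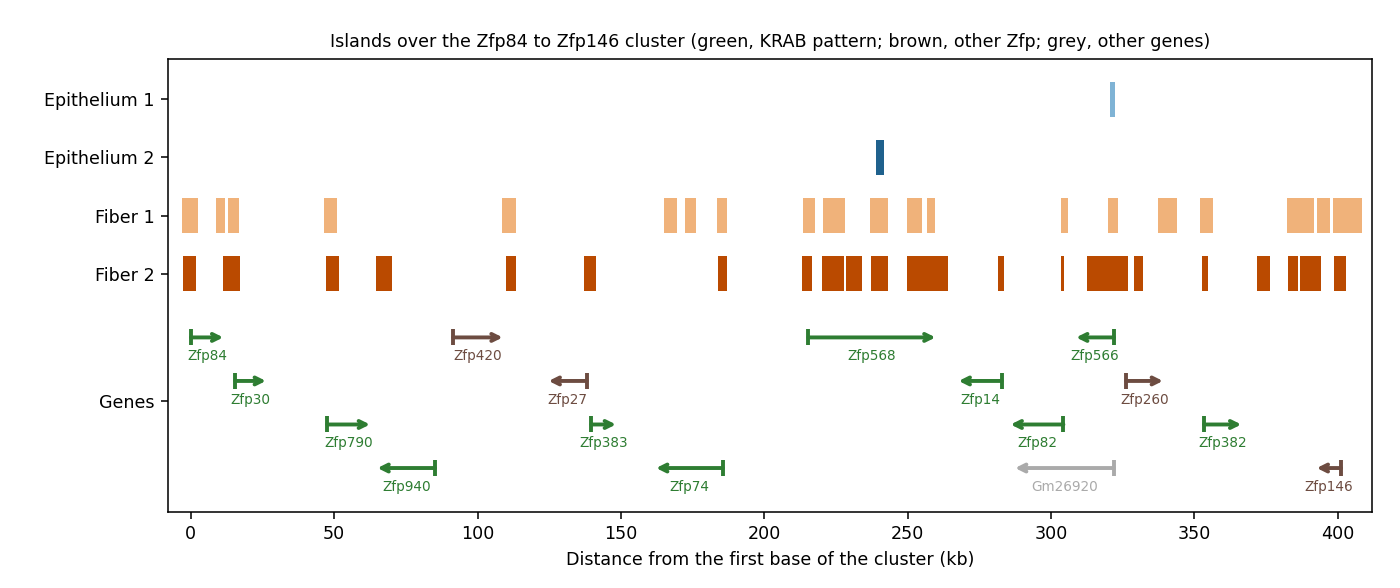
Islands (bars) of the 4 libraries over the Zfp84 to Zfp146 cluster, with genes drawn to scale against distance from the first base of the cluster in kb. Each epithelium library has 1 island and the fiber libraries have 20 and 21.

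Genes with known roles were chosen whatever their values. Zfp36 (chr7:28376784-28380253) encodes tristetraprolin, a CCCH zinc finger protein that marks AU-rich mRNAs for decay, and therefore had no C2H2 pattern. Its coverage was 70.7% and 51.9% in the epithelium and 88.0% and 100% in the fibers, from islands of 121, 63, 494 and 931 reads. Both fiber values lay above both epithelium values. The fiber replicate 2 island is 28200 bp long and also holds the starts of Med29, Paf1 and Plekhg2, so its reads are not those of Zfp36 alone. Its relative Zfp36l2, named because it was covered in all 4 libraries, was at 93.3%, 73.4%, 88.3% and 100%, and its compartments overlapped. Zfp143 (chr7:110061217-110095394), an activator of small nuclear RNA and many mRNA promoters, had 1 island at its start in every library. Coverage was 8.15%, 6.39%, 13.4% and 12.8%, with 201 and 87 reads in the epithelium and 296 and 289 in the fibers. The island stayed at the start in both compartments and did not reach the largest exon.

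Zfp598 (chr17:24669687-24682016), a ubiquitin ligase that acts on collided ribosomes, had no island in the epithelium and 67.4% and 15.5% in the fibers. The start was in the island in both fiber libraries, which differed in how far the island ran into the gene. Zfp568 (chr7:29983955-30028282), a KRAB protein that represses a placental transcript of Igf2, had 0% and 5.87% in the epithelium and 53.8% and 68.0% in the fibers, where 5 islands in each library covered both the start and the finger exon. This is unlike most KRAB genes, of which 5.66% and 1.89% had the exon midpoint in an island. Zfp146 stood at 0%, 0%, 89.0% and 45.8%, with start and exon inside in both fiber libraries. Zfp260, of the same cluster and known from cardiac muscle, was at 0%, 0%, 12.6% and 32.9%.

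Zfp536 (chr7:37472135-37773641), a repressor of neuronal differentiation and the longest of the genes at 301507 bp, had 5.92% and 4.78% of its body in islands in the epithelium and 65.9% and 74.2% in the fibers. The islands numbered 6 and 6 in the epithelium and 29 and 31 in the fibers, with 561 and 401 reads against 5626 and 6304. The islands in the fibers spread over the gene and included its start, which lay in a 9200-bp island in both fiber libraries and in a 3800-bp island in epithelium replicate 1.

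No island overlapped Zfp57, a KRAB protein that keeps DNA methylation at imprinted loci, or Zfp110 and Zfp369, a pair of related proteins known as neurotrophin receptor-interacting factors. Zfp346, which binds double-stranded RNA, had an island in fiber replicate 2 only (13.9%), as did Zfp318 (7.53%), known for immunoglobulin D expression in B cells, and Zfp592 (9.32%). Zfp473, a protein of histone mRNA processing, had islands in epithelium replicate 2 (13.3%) and fiber replicate 2 (27.6%) and in neither replicate 1. In these 4 genes every island came from a replicate 2 library. Of the 14 genes with known roles, 7 were covered more in both fiber libraries than in either epithelium library, and these were Zfp36, Zfp568, Zfp143, Zfp598, Zfp536, Zfp260 and Zfp146. The background share is 38.4%. With the 10389 densest islands from each library, the fiber excess of Zfp146 (67.4 points), Zfp260 (22.8) and Zfp598 (41.5) was 0.

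Among the 15 genes with an island in all 4 libraries, the 10 highest mean coverages were found at Zfp36l2, Zfp580, Zfp36, Zfp553, Zfp784, Zfp771, Zfp574, Zfp865, Zfp523 and Zfp710. Zfp580 was at 97.1%, 66.9%, 100% and 100%. Zfp553 was at 45.3%, 100%, 80.5% and 100%, and its compartments overlapped. Zfp574 differed between the epithelium replicates, at 68.9% and 14.6%, and was at 100% in both fiber libraries. Zfp784 and Zfp865 overlap each other and the gene Ccdc106, and Zfp580 also overlaps Ccdc106, so their islands are shared. The body length of the genes in this list ran from 2186 bp (Zfp580) to 69360 bp (Zfp710).

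The 6 genes with the largest fiber excess were chosen by that excess, so their values are a description. Zfp524 stood at 0%, 21.8%, 100% and 100%, Zfp628 at 0%, 32.4%, 100% and 100%, and Zfp414 at 0%, 33.9%, 100% and 100%. Zfp688 had no epithelium island and 100% and 61.3% in the fibers, and was the 1 gene of the 6 with the KRAB pattern. Zfp646 had 0%, 57%, 100% and 100%, and Zfp526 had 0%, 34.2%, 100% and 77.0%. In 5 of the 6 the epithelium signal came from replicate 2 alone.

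The extremes of position were likewise chosen by their values. The start side exceeded the end side most at Zfp108 (99.5 and 47.2 points in the fibers), Zfp787 (77.6 and 54.6), Zfp747 (37.0 and 67.5) and Zfp668 (28.4 and 71.9). Zfp747 had 75.4% of its body covered in epithelium replicate 1 and 0% in replicate 2, with 18.5% and 37.4% in the fibers. The end side was covered more at Zfp629 (-58.6 and -40.4 points), Zfp710 (-57.1 and -36.9), Zfp180 (-32.6 and -30.1) and Zfp296 (-30.5 and -30.5). Zfp629 had 36.2% and 45.3% of its body in islands in the epithelium and 29.3% and 20.2% in the fibers, and its start was in an island in no library. Zfp296, known from embryonic stem cells, was at 100%, 0%, 84.7% and 84.7%, and it overlaps Gemin7. Its fiber excess of 34.7 points turned to -15.3 without epithelium replicate 2.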

How the data were processed

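H3.3 ChIP-seq of 2 lens epithelium and 2 lens fiber libraries was analysed; whole-genome bisulfite and pooled input samples were not analysed here. Single-end reads (75 nt) were placed on mm10 by the authors with BWA, and SICER2 was run separately per library to call islands (window 200 bp, gap 600 bp, false discovery rate 0.01). Duplicate removal, read filters and the use of the input in calling are not given in the sources used here. The deposited files give each island's position and its count of reads, with no division by depth or length, so the sequencing depth and counting error behind an absent island are unknown.

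Islands were overlapped by at least 1 bp with GENCODE vM21 gene bodies (Python 3.11.15, numpy 2.4.6; checked on simulated islands and against bedtools 2.31.1). Gene values were averaged per library and compartments were compared by exact two-sided permutation over libraries. Protein patterns were read from translated coding sequence. Repeats were 75-nt stretches that occur again in mm10 on either strand. Figures were drawn with matplotlib 3.10.9. Groups came from the sample titles. Named genes were those with a known role, the 10 with the highest coverage among genes with an island in all 4 libraries, the 6 with the largest fiber excess among genes with non-overlapping compartments, the 4 most covered on the start side and the 4 on the end side, and genes with the exon inside and the start outside an island. Zfp974 was named after its values were seen. The genes and lists were chosen with earlier results of these data known. Alternatives left out each library, equalised island numbers, raised the island threshold and changed the gene, start and exon definitions.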

Additional observations from a re-analysis of the deposited data

Results flagged for a closer look

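At 1 gene and in 2 gene groups, all epithelium libraries gave a start side minus end side of one sign and all fiber libraries the other, and in each case the difference was not tested. Zfp523, a relative of Zfp143, was at -10.3 and -12.5 points in the epithelium and at 13.9 and 65.3 points in the fibers. The chromosome 7 genes without the KRAB pattern averaged -0.844 and -1.14 points in the epithelium and 1.73 and 12.1 points in the fibers. The Zfp628 to Zfp580 cluster averaged -0.345 and -25.1 points in the epithelium and 10.4 and 3.01 points in the fibers.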

How the results depend on the processing

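The differences over the 174 genes kept their direction when each library was left out in turn: 32.5 to 48.6 points for the share with an island, 13.3 to 14.4 points for coverage, -1.82 to -1.71 reads per kb for density, 6.10 to 12.9 points for start side minus end side (0.201 to 1.0 within the epithelium, 6.70 to 13.5 within the fibers) and 20.1 to 40.2 points for start against exon (1.15 to 2.30 and 21.8 to 42.0). With each library left out in turn, 70 to 103 genes were higher in the fibers and 1 to 4 lower. The share higher was 40.2% without epithelium replicate 1 and without epithelium replicate 2, beside 41.8% and 42.2% of all genes. It was 59.2% without fiber replicate 1 and 42.0% without fiber replicate 2, beside 48.2% and 43.4%. Only without fiber replicate 1 was the Zfp share above that of all genes. Genes lower in the fibers numbered 4 without epithelium replicate 1 and 3 without epithelium replicate 2 (2.3% and 1.72%, beside 3.2% and 2.87%). They numbered 1 without fiber replicate 1 and 2 without fiber replicate 2 (0.575% and 1.15%, beside 1.56% and 1.58%). The density difference turned to 2.41 when each library gave the same number of islands, chosen by density, and to 0.143 with islands of at least the median density of their library; the cause was not tested. Start side minus end side in the epithelium was -0.289 in genes over 10 kb and 1.33 between the outer parts of the gene (3 equal parts). In the fibers it was 3.53 and 2.76 with equal numbers of islands by density and by reads, and start against exon was 14.7 and 5.75. Start against exon in the epithelium was 4.31 with 1 kb on each side of the start. The count of genes higher in both fiber libraries was 21 and 20 with equal numbers (12.1% and 11.5%, beside 13.2% and 17.9% of all genes). It was 36 with islands of at least the median density, a setting for which no share over all genes is given here. Coverage differences turned for Zfp180 (-2.18 by density and by median density, -4.65 by reads) and, with the densest islands, for Zfp414 (-16.9), Zfp580 (-32.0) and Zfp668 (-2.18). Among named genes whose compartments overlap, Zfp296 turned with the densest islands (-50) and without epithelium replicate 2 (-15.3), Zfp553 with the densest (-32.4), by reads (-15.4) and without epithelium replicate 1 (-9.77), Zfp473 by reads and without fiber replicate 2 (-6.64 each), and Zfp747 without epithelium replicate 1 (27.9).

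Whether replicate numbers pair the libraries is not stated in the sample labels. The deviations of replicate 1 from replicate 2 in the epithelium and the fibers had a correlation of 0.0411 over the 174 genes. With 2 pairs this value cannot decide whether the libraries were paired. With the replicate block the differences stayed at 40.5, 13.9, -1.77, 9.50 and 30.2, each with an exact sign-flip p of 0.5, the smallest that 2 pairs allow.

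The fiber libraries hold more islands, and with 2 libraries per compartment the exact test has a smallest p of 0.333. An absent island says that enrichment was not called at an unknown depth. KRAB patterns were read by exact letters, and genes in clusters share sequence.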

Other observations

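Length and position described the Zfp genes further. The 18 KRAB genes under 10 kb had an island in 5.56%, 11.1%, 38.9% and 61.1% in the 4 libraries, the 74 of 10 to 30 kb in 1.35%, 2.70%, 37.8% and 58.1%, and the 14 over 30 kb in 0%, 7.14%, 21.4% and 28.6%. All protein-coding genes went the other way in the fibers, from 37.4% and 40.1% under 10 kb to 62.4% and 71.1% over 30 kb. Median shares of repeated stretches in KRAB genes were 5.00% under 10 kb, 2.26% at 10 to 30 kb and 12.6% over 30 kb. In all protein-coding genes they were 0.505% under 10 kb and 1.61% over 30 kb. The part of repeats in these opposite orders was not tested. The 39 Zfp genes outside clusters had an island in 20.5%, 25.6%, 61.5% and 76.9%, against 8.15%, 14.8%, 42.2% and 58.5% of the 135 in clusters. With 25 or more CG in the 300 bases of the matched RefSeq promoter, the GENCODE start lay in a fiber island in 73.3% and 86.7% of 15 genes. At Zfp607b, among these 15, the RefSeq and GENCODE starts are 14679 bp apart. The shares were 46.5% and 53.5% of 43 genes with 15 to 24 CG. They were 31.0% and 52.9% of 87 genes with 5 to 14 CG and 20% and 40% of 10 genes with 0 to 4. The KRAB pattern was present in 3 of the 15 genes and in 72 of the 87. In KRAB genes alone the shares were 41.2% and 35.3% with 15 to 24 CG and 30.6% and 50% with 5 to 14. These 2 bins had opposite orders in the 2 fiber libraries.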
